A study of Mus musculus with 12 samples.

Results

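Livers of C57BL/6J mice fed a NASH diet for 24 weeks were compared with livers of mice fed chow, over all measured genes. NASH, non-alcoholic steatohepatitis, is the inflamed and scarred form of fatty liver disease. The comparison used 6 of the 12 livers in the series, 3 in each group. The chow group received standard chow, and the labels name no pump for it. The second group, called vehicle here, received a diet with 40% of its calories as fat, high in cholesterol, fructose and both saturated and trans fats, and carried a subcutaneous osmotic minipump releasing polyethylenglycol (PEG). The remaining 6 livers came from mice on the same diet with oleic acid or nitro-oleic acid in the pump. They were not compared here, but entered the choice of genes to test, the scaling and the estimate of the spread between animals. The members were chosen by the groups in the labels, and the description covers the 14469 genes with enough counts to test, of 24983 in the table. The labels give neither the sex nor the age of the mice nor how long the pumps ran, and what the diet and the pump each contributed cannot be told apart.

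As background, most liver RNA comes from hepatocytes, which make plasma proteins, dispose of amino acid nitrogen and handle lipids, bile acids and drugs. Their gene expression is zoned along the blood flow: periportal cells lead in gluconeogenesis, urea synthesis and amino acid breakdown, and pericentral cells in glutamine synthesis and drug metabolism. Sinusoidal endothelium, Kupffer cells, stellate cells and bile duct cells make up the rest, and in steatohepatitis monocyte-derived macrophages and scar matrix accumulate.

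Each library came from the liver of a separate mouse. The 6 libraries held between 8462590 counts (chow replicate 1) and 20613777 counts (vehicle replicate 3), and the next lowest total was 15972613. Hepatocyte markers were abundant in all 6, and the Y-linked genes Ddx3y, Kdm5d, Eif2s3y and Uty were detected in all 6 with Xist at or below 0.426 CPM (counts relative to each library's scaled total, the unit used for levels here). The first principal component of all 12 libraries, 46.4% of variance, placed chow between -71.87 and -44.72 and vehicle between 22.46 and 54.36. Mitochondrial transcripts made up 10.7% to 14.5% of counts in chow, 6.63% and 7.22% in vehicle replicates 1 and 2 and 14.3% in vehicle replicate 3, which stands apart from its group.

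A gene was called where the quasi-likelihood test of edgeR gave a Benjamini-Hochberg adjusted p under 0.05 over all 14469 genes. The diet groups differed in 2786 genes, or 19.3% of those tested. Expression was higher on the NASH diet for 1606 genes (11.1%) and lower for 1180 (8.16%). With library size alone in place of the scaling described below, 5510 genes (38.1%) were called higher and 248 (1.71%) lower, so the balance of rises and falls rests on the scaling. Changes beyond 1 on the log2 scale numbered 1161 upward and 382 downward. To see which calls any single animal carried, the fit was repeated without each of the 6 chow and vehicle libraries, which left 1392 genes called without chow replicate 1, 1457 without chow replicate 2, 1521 without vehicle replicate 2 and 1200 without vehicle replicate 3. In all 7 fits, the one on every library and these 6, the same 928 genes were called in the same direction: 609 higher (4.21%) and 319 lower (2.20%). Counts kept in all 7 fits are given beside the groups below. The CPM values of the groups did not overlap for 5696 genes, 39.4% of those tested, and among them were 2751 of the called genes.

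Lower calls made up a larger share of the highly expressed genes and higher calls of the weakly expressed. Ranked by CPM per kb of exon, a scale that allows levels of different genes to be compared, the 61 genes at 1000 or more included 24 called lower and 0 called higher by edgeR (0 also at an unadjusted p under 0.05, and 1 in DESeq2). At 100 to 1000 CPM per kb, 124 of 435 genes were called lower and 20 higher. In the same classes library size alone gave 11 lower and 4 higher, and 43 lower and 107 higher. Below 1 CPM per kb the order was the opposite, with 15.6% of 4405 genes called higher and 2.36% lower. The median log2 fold change moved from 0.32 in that lowest class through -0.04, -0.16 and -0.33 to -0.76 in the highest, against -0.01 over all genes, and with library size alone it ran from 0.83 through 0.48, 0.36 and 0.19 to -0.23.

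**Figure D1:**
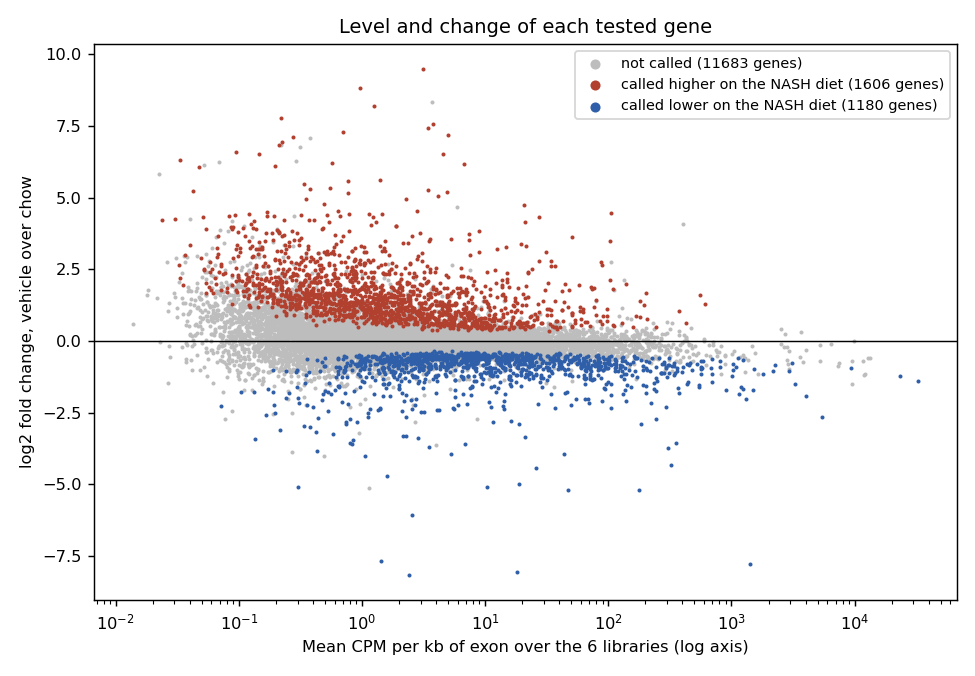
Each point is a tested gene, with its mean CPM per kb of exon over the 6 libraries on a log axis and its log2 fold change, vehicle over chow, on the other. Called genes are coloured; above 1000 CPM per kb the called genes all lie below 0, and below 1 CPM per kb most lie above it.

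The libraries themselves changed make-up in the same way. The 10 most abundant genes held 22.7% to 24.0% of counts in chow and 17.5% to 19.4% on the NASH diet, and the 100 most abundant 50.1% to 53.5% against 41.4% to 43.7%. More genes were detected on the NASH diet, 20339 to 20526 against 17320 to 19488, although chow replicate 1 was also the shallowest library. At 1 CPM or more, a measure less tied to depth, 12562 to 12837 genes were present on the NASH diet and 12119 to 12257 in chow. The scaling used here (trimmed mean of M values, TMM) sets the middle of all genes near 0. Dividing by library size alone moves the median of all genes to 0.51, so every change below is relative to the bulk of genes. Where that choice changes the balance of a gene group, both counts are given, and counts with library size alone are to be read against its 38.1% higher and 1.71% lower. In bulk tissue, fewer cells of a type and less RNA per cell cannot be told apart.

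Genes were named from those called in all 7 fits whose groups did not overlap, with predicted genes and some multigene families left out. Among these, the largest losses of RNA in CPM included hepatocyte secretory and nitrogen-handling genes. Albumin (Alb, chr5:90460897-90476602 in build GRCm38, as for all coordinates here), the main plasma protein, stood at 123273.9, 114293.6 and 96661.8 CPM in chow and at 46728.9, 45160.7 and 35376.0 CPM on the NASH diet (log2 fold change -1.39, SE 0.29, adjusted p = 0.00701). No vehicle library reached the lowest chow library. Bhmt, which remethylates homocysteine with betaine, read 15280.9, 8417.3 and 8878.2 CPM in chow and 4011.7, 3786.7 and 2541.8 CPM on the NASH diet, a log2 fold change of -1.66. Cps1, the entry enzyme of the urea cycle, fell by 1.62 on the log2 scale, from 5684.4, 4222.9 and 3829.3 CPM to 2029.4, 1406.4 and 1038.3 CPM. The protease inhibitors Serpina3k (-1.92), Serpina1d (-1.72) and Mug1 (-1.52), all members of families with near-identical copies, also fell. Kng1, the kininogen precursor, fell by 0.92 and was not called with library size alone (-0.39).

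Genes of lipid oxidation and methyl-group metabolism were also among the 12 largest losses. The fatty acid omega-hydroxylases Cyp4a14 (-2.04) and Cyp4a10 (-1.86) fell in all 3 livers, with vehicle replicate 3 the lowest for both, at 445.8 and 508.1 CPM. Ahcy, which splits S-adenosylhomocysteine, fell by 1.72, and Ephx2, the soluble epoxide hydrolase, by 1.15. The large mitochondrial ribosomal RNA, mt-Rnr2, fell from 7770.2, 9421.8 and 5734.4 CPM to 2629.2, 3439.4 and 2058.6 CPM, and was lowest in vehicle replicate 3, whose mitochondrial share was the highest of its group. Bhmt shares exon sequence with an annotated gene on the opposite strand, and Serpina3k with a neighbouring paralog, so their counts are less certain.

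The largest gains in CPM included hepatocyte genes and genes of other cells. Glul (chr1:153899944-153909723), glutamine synthetase, rose from 721.0, 875.8 and 858.7 CPM to 1446.5, 1641.2 and 1963.5 CPM (log2 fold change 1.04, SE 0.20, adjusted p = 0.00477), the largest gain in CPM of the genes so chosen. Gstm1, a glutathione transferase with close paralogs, rose by 1.29. Krt8, a keratin, read 203.1, 185.7 and 194.3 CPM in chow and 481.8, 501.3 and 553.3 CPM on the NASH diet. Its values differed little inside either group. Serpina7, which encodes thyroxine-binding globulin, rose by 2.76, from 36.2, 70.7 and 56.3 CPM to 182.1, 391.9 and 533.1 CPM. Also among these 12 gains were the antigen-presentation genes Cd74 (2.65) and H2-Aa (2.62) and the macrophage lysozyme Lyz2 (2.00). The actin gene Actb (1.24), the thymosin Tmsb4x (1.67), Anxa5 (1.83), the lipase Lpl (3.20) and Spp1, the secreted matrix protein osteopontin, complete them. Spp1 was uneven: it reached 459.9 and 414.1 CPM in vehicle replicates 2 and 3 but 65.9 CPM in replicate 1, against 22.0 to 35.9 CPM in chow.

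Genes with at least 10 CPM on average were then ranked by fold change, passing over genes described in an earlier reading of these data, such as Gpnmb, Spp1 and Marco, which are given elsewhere in the text. Ubd (chr17:37193892-37196095), a ubiquitin-like modifier induced by inflammatory cytokines, came first among the rises ranked here, from 1.56, 1.58 and 1.09 CPM to 17.5, 43.4 and 51.2 CPM (log2 fold change 4.75, SE 0.68, adjusted p = 0.00247). Ly6d (chr15:74762056-74763620), a small membrane-anchored surface protein, followed at 3.74, 6.12 and 9.67 CPM in chow against 97.5, 161.6 and 190.6 CPM (4.47, SE 0.69, adjusted p = 0.00254). The fibrillar collagens Col3a1 (3.83) and Col1a2 (3.42) followed, with Cd63 (3.74), a tetraspanin of late endosomes, the calcium-binding S100a11 (3.62), Lgals3 (3.39), Anxa2 (3.32) and the monocyte chemokine receptor Ccr2 (3.24). Rad51b, a recombination paralog, rose by 3.57, from 2.18, 3.44 and 3.39 CPM to 20.6, 45.5 and 45.0 CPM.

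Among the falls, Cyp2c54, one of several near-identical cytochromes, came first, from 656.9, 685.6 and 415.0 CPM to 91.5, 111.5 and 32.9 CPM (log2 fold change -2.90, SE 0.60, adjusted p = 0.00745). Lamb3 (chr1:193207699-193343878), a laminin chain, had the lowest p of the falls ranked here: 36.8, 30.7 and 32.9 CPM in chow and 6.57, 5.44 and 6.09 CPM on the NASH diet (-2.47, SE 0.21, adjusted p = 9.88e-05). Egfr (chr11:16752203-16918158), the epidermal growth factor receptor, fell by 2.19, from 566.6, 262.6 and 658.8 CPM to 84.5, 103.7 and 136.7 CPM. Cyp8b1, the sterol hydroxylase that directs bile acid synthesis to cholic acid, fell by 2.17, and Msmo1, an enzyme of cholesterol synthesis, by 2.27, although its chow values ran from 56.4 to 278.5 CPM. Slc22a7, an organic anion transporter, fell by 2.24, Ces3b, a carboxylesterase, by 2.35, and Susd4, a complement regulator, by 2.34. Keg1 (-2.38), Acpp (-2.35) and Hacl1 (-2.25), a lyase of peroxisomal alpha-oxidation, also fell. Hacl1 overlaps an expressed gene on the opposite strand, and the use of strand in counting is not given in the sources used here.

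**Figure D2:**
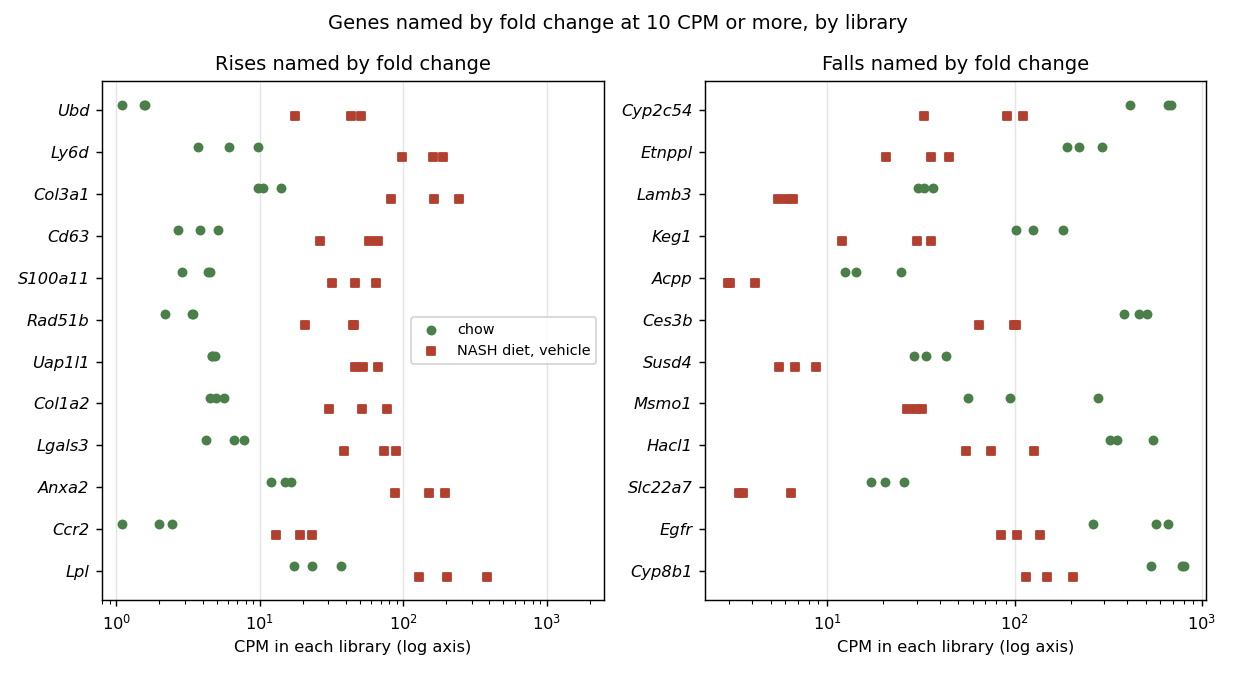
CPM of each chow library (green circles) and each vehicle library (red squares) on a log axis, for the 12 rises and 12 falls named by fold change at 10 CPM or more, genes described in an earlier reading left out. They run from Ubd (4.75 on the log2 scale) to Lpl (3.20) and from Cyp2c54 (-2.90) to Cyp8b1 (-2.17); groups that do not overlap were a condition of being named.

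Genes were also ranked by p, with the same genes passed over. Slc13a3 (chr2:165405028-165473230), a sodium-coupled carrier of dicarboxylates, rose from 13.4, 13.7 and 12.7 CPM to 50.9, 58.5 and 76.7 CPM (log2 fold change 2.23, SE 0.20, adjusted p = 0.000124). Ntrk2, the receptor for brain-derived neurotrophic factor, rose from 4.05, 5.37 and 4.61 CPM to 18.5, 15.9 and 24.6 CPM (2.05, adjusted p = 0.00028). Uap1l1, a paralog of an enzyme that makes UDP-N-acetylglucosamine, was nearly constant in chow at 4.68, 4.89 and 4.67 CPM and read 46.2, 52.5 and 66.7 CPM on the NASH diet (3.54, adjusted p = 0.000495). Rnf145 (1.68), an endoplasmic reticulum ubiquitin ligase of sterol control, Slc39a4 (2.27), a zinc importer, Cyba (2.15), a membrane subunit of the phagocyte NADPH oxidase, the class I gene H2-Q1 (2.37), Tubb6 (2.03), Ifi27l2b (2.42) and Adam11 (2.28) completed the 10. On the falling side, C8b, a chain of the terminal complement complex, went from 249.8, 232.7 and 358.0 CPM to 59.4, 79.0 and 66.3 CPM (-2.04, adjusted p = 0.000731). Apom, the lipoprotein that carries sphingosine-1-phosphate, fell by 1.60, Srgap3 fell by 3.09, Cyp4a32 fell by 1.84, and Cntrl, N4bp2 and Tnfaip8l1 by 1.21, 1.28 and 1.21. H2-Q1, Cyp4a32, Ifi27l2b and the serpins belong to families whose members share sequence.

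To see which functions these genes belonged to, 66 gene lists were read against the shares of all tested genes, 11.1% higher and 8.16% lower. They hold 2252 genes, of which 35 were not matched in the table, and 2200 of the 2786 called genes were in none of them. A list's share is a description and was not tested.

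**Figure D3:**
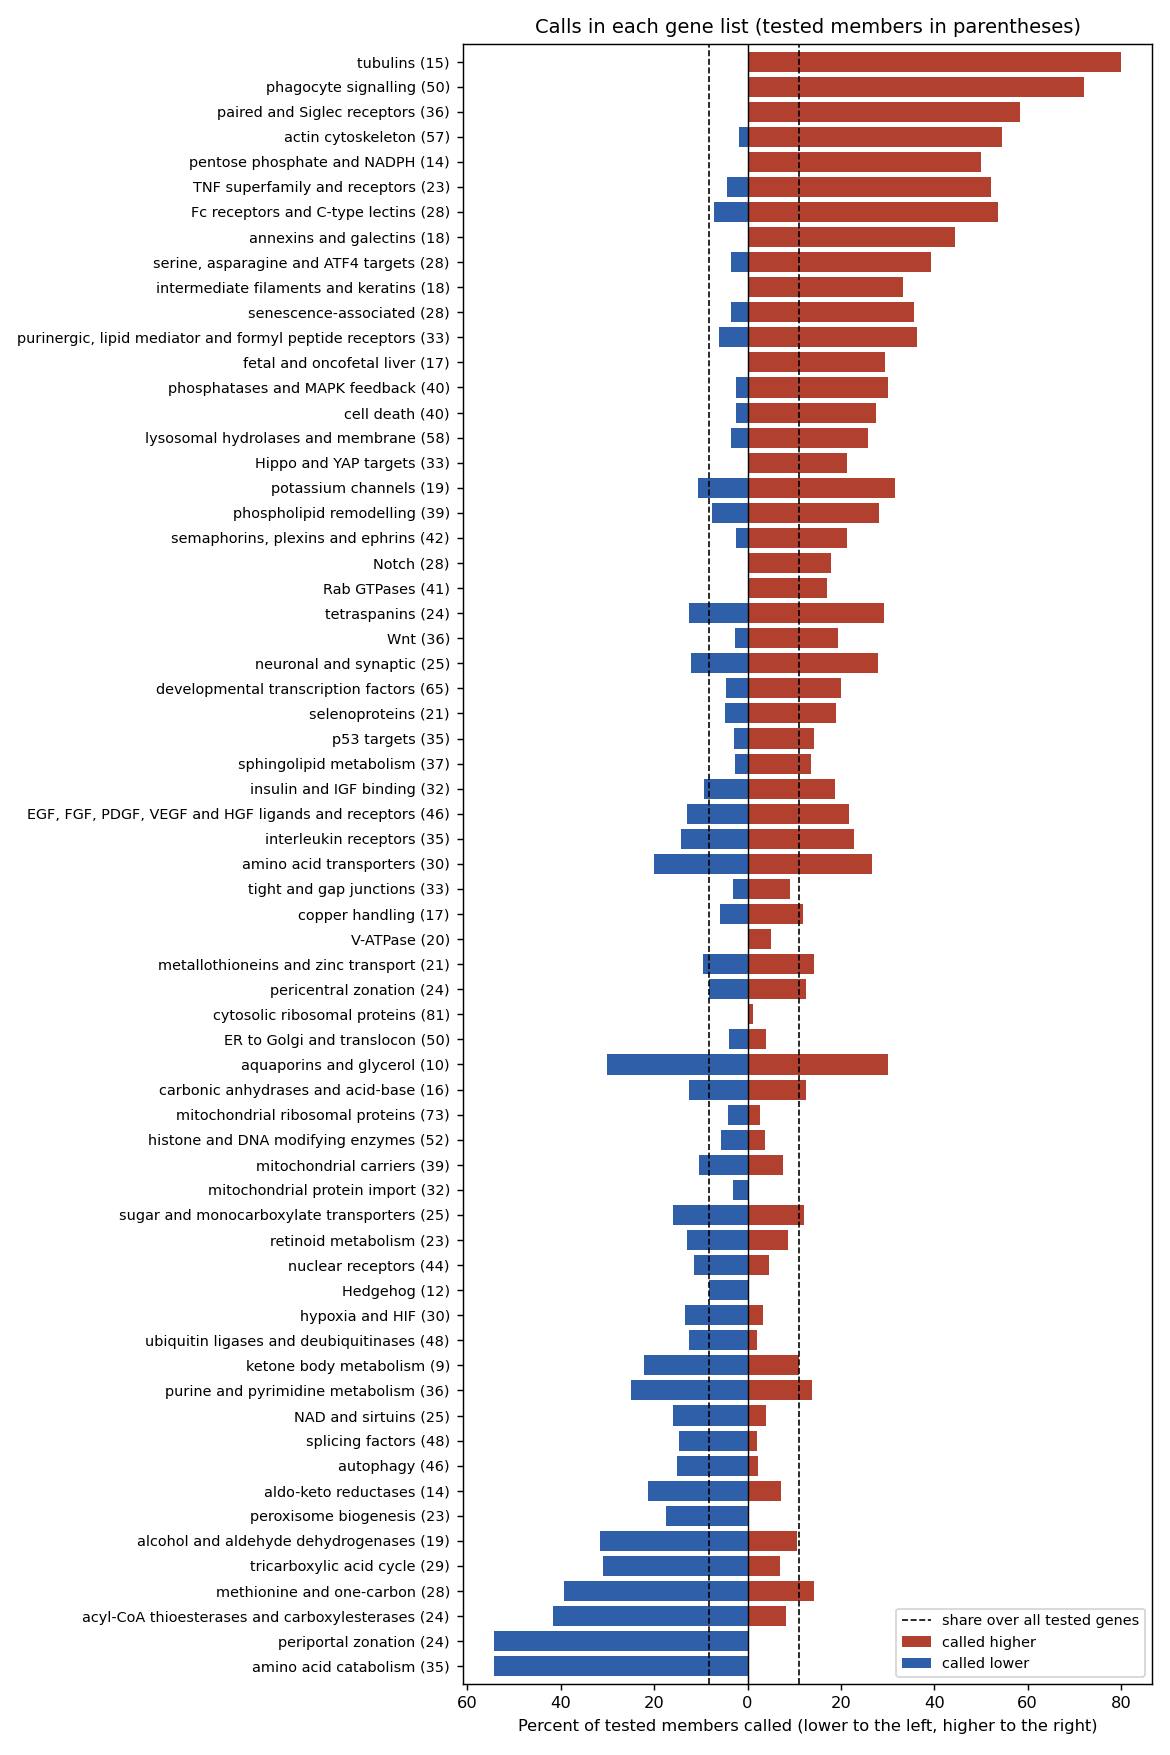
Percent of the tested members of each gene list called higher (red, to the right) or lower (blue, to the left) on the NASH diet, with dashed lines at 11.1% and 8.16%, the shares of all tested genes. Tubulins (80.0%) and phagocyte signalling (72.0%) reach farthest to the right, amino acid catabolism (54.3%) and periportal genes (54.2%) farthest to the left.

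Genes of both hepatocyte zones were among those called. Of 24 periportal genes, 13 were called lower, 4 of them in all 7 fits, and the list's median log2 fold change was -0.86 (-0.34 with library size alone, where 6 were called lower). Without vehicle replicate 3 the count was 4. Of 24 pericentral genes, 2 were called lower (8.33%) and 3 higher (12.5%), near the 8.16% and 11.1% of all tested genes. Their median of -0.12 turned to 0.40 with library size alone, where 8 were called higher and 0 lower. Without chow replicate 3 or vehicle replicate 3, 0 pericentral genes were called lower. The difference between the lists was not tested.

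The periportal falls included enzymes of amino acid breakdown. Etnppl, which breaks down phosphoethanolamine, went from 291.6, 221.3 and 189.7 CPM to 44.6, 36.0 and 20.7 CPM (log2 fold change -2.79, SE 0.50, adjusted p = 0.00413). Hal, histidine ammonia-lyase, went from 685.8, 391.4 and 658.4 CPM to 192.2, 160.0 and 71.0 CPM (-2.04, adjusted p = 0.00938). Vehicle replicate 3 was the lowest library for both. Sfxn1, the mitochondrial serine carrier, fell by 1.15 and Apof, an apolipoprotein, by 0.84, the latter not called with library size alone (-0.31). Pck1, the gluconeogenic PEP carboxykinase (-1.44), Gls2, liver glutaminase (-1.29), Igf1, the circulating growth factor (-1.33), Tat, tyrosine aminotransferase (-1.49), and Sds, serine dehydratase (-1.30), were called lower but not in all 7 fits. Ass1, the argininosuccinate synthase of the urea cycle, changed by -0.49 and did not pass (adjusted p = 0.160), and Cdh1 was the only member above 0, at 0.62 (adjusted p = 0.464).

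Pericentral genes were called in both directions, at shares near those of all tested genes. Slc13a3 and Glul rose in all 7 fits, and Rhbg, an ammonium transporter, was called higher but not in all 7 fits (log2 fold change 1.75, adjusted p = 0.0185; 2.05, 1.12 and 2.70 CPM against 0.624, 0.826 and 0.320 CPM). Oat, ornithine aminotransferase (-1.01), and Ang (-0.96) were called lower. Glul, Rhbg and Oat are known to depend on Wnt signals, and of other members with that dependence Axin2 changed by 0.93 (adjusted p = 0.141), Lgr5 by -0.07 (adjusted p = 0.886) and Znrf3 by -0.05 (adjusted p = 0.895). Rnf43 (0.58, adjusted p = 0.302) and Tbx3 (0.46, adjusted p = 0.429) of the same list did not pass either. The drug-metabolising Cyp2e1 changed by -0.69 (adjusted p = 0.112) and Cyp1a2 by -0.28 (adjusted p = 0.606). RNA of the enzyme that makes glutamine was higher (Glul) and RNA of the liver enzyme that breaks it down called lower (Gls2, lost without chow replicate 1, vehicle replicate 2 or vehicle replicate 3).

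**Figure D4:**
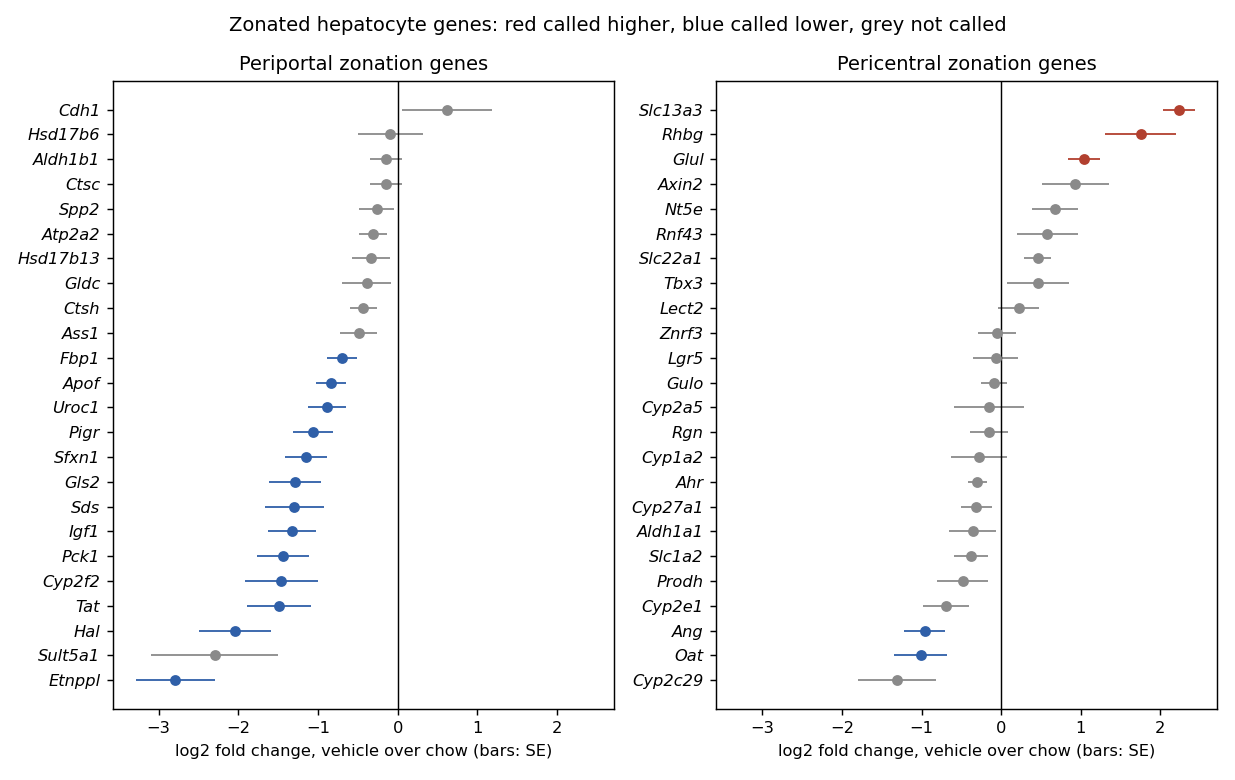
The log2 fold change, vehicle over chow, of each periportal gene (left) and each pericentral gene (right), with bars for the SE; red was called higher, blue lower, grey neither. The 13 called periportal genes all lie left of 0, from Fbp1 (-0.70) to Etnppl (-2.79), and the pericentral genes spread to both sides, from Cyp2c29 (-1.31) to Slc13a3 (2.23).

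Genes of amino acid breakdown were called mostly lower, a balance that rests on the scaling. Of 35 catabolic genes, 19 were called lower and 0 higher by edgeR, with 0 higher also in DESeq2 and at an unadjusted p under 0.05 (median -0.71, or -0.18 with library size alone), 6 of them in all 7 fits, and the count without vehicle replicate 3 was 6. 6 were called lower and 5 higher with library size alone. In the kynurenine route of tryptophan, Kmo, kynurenine monooxygenase, went from 646.1, 583.3 and 491.4 CPM to 326.9, 254.3 and 271.5 CPM (log2 fold change -1.01, adjusted p = 0.00601). Aadat, which transaminates kynurenine and aminoadipate, fell by 1.31 and Afmid, kynurenine formamidase, by 1.84, though Afmid overlaps an expressed gene on the other strand. Tdo2 (-0.95) and Kynu (-0.73) of the same route were called lower, not in all 7 fits. Got1, the cytosolic aspartate aminotransferase, fell by 1.90 while its mitochondrial counterpart Got2 changed by -0.06 (adjusted p = 0.825). Enzymes of tyrosine breakdown (Hpd, -1.23; Hgd, -0.82) and of branched-chain amino acids (Dbt, -1.03; Ivd, -0.93; Mccc2, -0.57) were called lower, each lost in at least 1 of the 7 fits.

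Methionine and one-carbon genes were called in both directions. In 28 genes, 11 were called lower and 4 higher, 3 and 2 of them in all 7 fits, and the median of -0.39 turned to 0.13 with library size alone, where 4 were called lower and 9 higher. Without chow replicate 1 or vehicle replicate 3, 3 were called lower. Several liver enzymes of the methionine cycle were lower: besides Bhmt and Ahcy, Cth, which makes cysteine, fell from 815.4, 787.4 and 769.5 CPM to 368.2, 289.3 and 150.6 CPM (-1.55), and Gnmt (-1.61) and Mat1a (-1.17), the users and makers of S-adenosylmethionine, were called lower but not in all 7 fits. The mitochondrial folate enzyme Mthfd1l rose from 2.18, 0.963 and 0.640 CPM to 6.24, 5.22 and 7.14 CPM (2.46, SE 0.40, adjusted p = 0.00293). Mthfd2, which acts beside it, was called higher at 1.75 but not in all 7 fits, and the cytosolic Mthfd1 (-0.77) and Shmt1 (-0.94) were called lower, not in all 7 fits.

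The transcription factor ATF4 is made when amino acids run short or the endoplasmic reticulum is stressed, and it turns on genes for amino acid supply. Of 28 genes of serine and asparagine synthesis and other known ATF4 targets, 11 were called higher and 1 lower (median 0.59), 5 higher in all 7 fits, and 5 were called higher without chow replicate 2. Psat1, the serine synthesis aminotransferase, read 0.468, 0.413 and 0.512 CPM in chow and 2.84, 4.64 and 4.10 CPM on the NASH diet (log2 fold change 3.03, SE 0.61, adjusted p = 0.00636). Vldlr, a lipoprotein receptor, rose from 2.65, 5.16 and 1.79 CPM to 13.4, 14.4 and 13.1 CPM (2.07, adjusted p = 0.00224). Nupr1, a stress-induced nuclear protein, rose from 0.156, 1.17 and 1.15 CPM to 3.73, 12.0 and 6.85 CPM (log2 fold change 3.0, adjusted p = 0.0108). The transfer RNA synthetases Cars (1.03) and Sars (0.61) also rose, and Wars (0.75), the hormone gene Fgf21 (1.81) and the stress genes Trib3 (1.35) and Ddit3 (1.0) were called higher but not in all 7 fits. Slc7a11, the cystine carrier, was at 0, 0.0688 and 0 CPM in chow and 0.792, 0.693 and 0.423 CPM on the NASH diet. Other members did not pass: Atf4 itself changed by 0.17 (adjusted p = 0.394), Asns, asparagine synthetase, by -1.12 (adjusted p = 0.214), Chac1 by 1.21 (adjusted p = 0.0755) and Phgdh by 0.29 (adjusted p = 0.811), while the synthetase Eprs was called lower at -0.50, a value of 0.03 with library size alone.

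**Figure D5:**
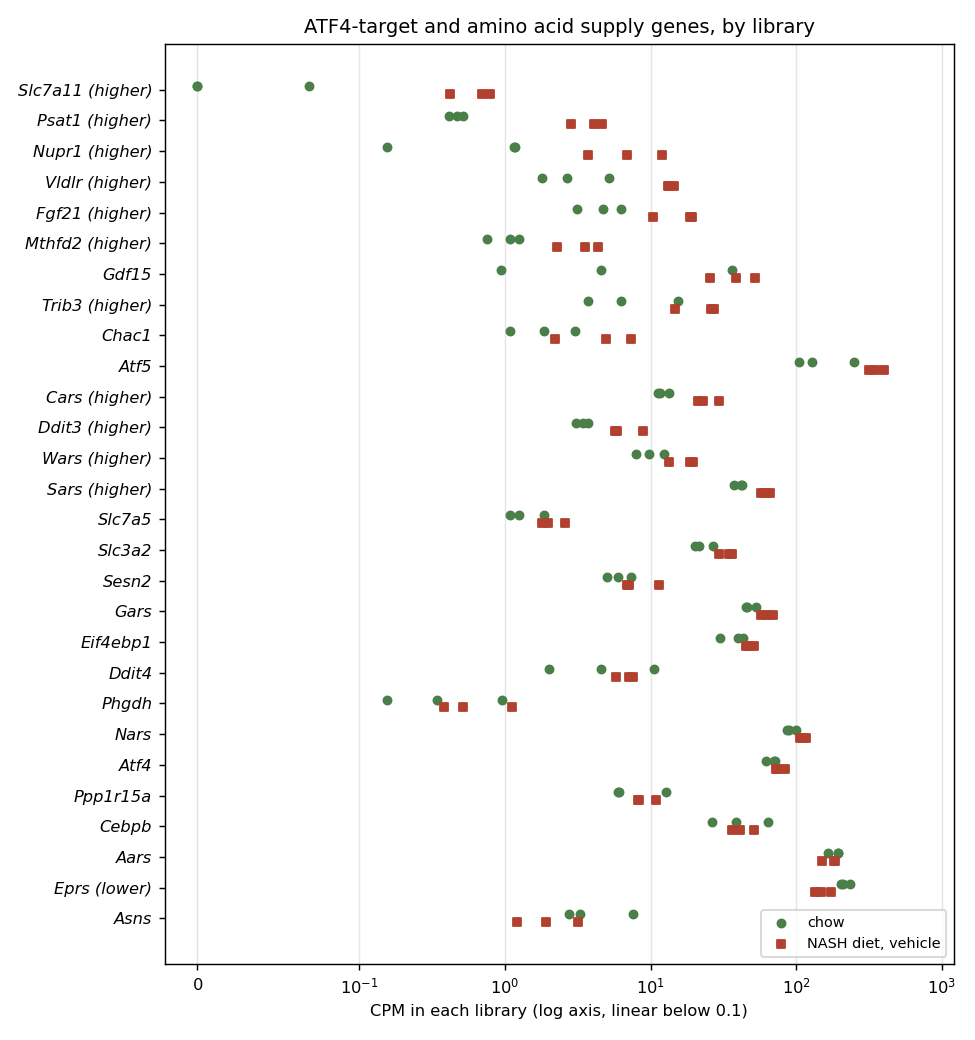
CPM of each ATF4-list gene in each chow library (green circles) and vehicle library (red squares), on a log axis that is linear below 0.1; the call is given after the name. The groups separate for Psat1, Vldlr, Nupr1 and Cars and overlap for Asns, Phgdh and Aars.

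The promoters of these genes were searched for TGATGCAAT, the composite letters that ATF4 and its partners are known to bind, on both strands. In the RefSeq promoter table (build GRCm38.p6, 250 bases before to 50 after each start), 60 of 27025 promoters, or 0.222%, held it. Of 23 list genes with a promoter in the table, 3 held it: Fgf21 and Nupr1, which were called higher, and Aars, alanyl-tRNA synthetase, which was not called (193.9, 164.7 and 191.8 CPM against 182.1, 149.2 and 184.4 CPM). The 3 promoters are shown because they set called and uncalled genes with the same letters side by side. They lie at chr7:45615441-45615740 (Fgf21, minus strand), chr7:126625421-126625720 (Nupr1, minus strand) and chr8:111033592-111033891 (Aars, plus strand), each is written 5′ to 3′ on its gene's strand, and capitals mark the match.
Fgf21: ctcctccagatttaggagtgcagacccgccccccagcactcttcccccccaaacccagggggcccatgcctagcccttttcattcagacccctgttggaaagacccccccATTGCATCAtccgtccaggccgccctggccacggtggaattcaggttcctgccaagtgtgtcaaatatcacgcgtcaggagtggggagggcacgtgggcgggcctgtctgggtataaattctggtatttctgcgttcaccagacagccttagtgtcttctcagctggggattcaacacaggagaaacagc
Nupr1: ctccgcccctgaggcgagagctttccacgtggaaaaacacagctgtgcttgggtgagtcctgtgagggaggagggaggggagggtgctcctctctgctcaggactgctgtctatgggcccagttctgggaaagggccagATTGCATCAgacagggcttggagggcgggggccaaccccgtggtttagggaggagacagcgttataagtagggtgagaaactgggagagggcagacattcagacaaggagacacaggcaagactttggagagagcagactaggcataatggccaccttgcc
Aars: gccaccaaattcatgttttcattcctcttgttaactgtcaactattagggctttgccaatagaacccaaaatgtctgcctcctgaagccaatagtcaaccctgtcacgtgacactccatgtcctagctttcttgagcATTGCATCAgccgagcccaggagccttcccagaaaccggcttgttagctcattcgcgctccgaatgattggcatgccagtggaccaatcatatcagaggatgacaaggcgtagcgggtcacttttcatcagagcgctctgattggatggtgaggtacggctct
In all 3 the match reads on the strand opposite to the gene. Among the 9 called-higher genes with a promoter, 2 held the letters, and among the 14 others 1 did. The list was written from known targets, so a match is a description and not a site.

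Amino acid carriers changed in both directions. Of 30 carriers, 8 were called higher and 6 lower, 3 and 4 of them in all 7 fits, and without chow replicate 2 the higher count was 4. Under library size alone, 18 were called higher and 4 lower. Slc1a4, a carrier of alanine and serine, rose from 1.09, 2.06 and 2.56 CPM to 7.36, 11.6 and 12.0 CPM (log2 fold change 2.35, adjusted p = 0.00254), and Slc7a6 (3.20) and Slc7a8 (1.39) also rose in all 7 fits. Slc38a4, an abundant hepatocyte carrier, fell from 1990.4, 2074.1 and 2028.1 CPM to 985.9, 989.9 and 804.3 CPM (-1.13, adjusted p = 0.00455). Slc43a1, a carrier of large neutral amino acids, fell by 2.36, the betaine carrier Slc6a12 by 1.28 and the arginine carrier Slc7a2 by 1.22.

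In carbon metabolism, the pentose phosphate and NADPH list held 7 of 14 genes called higher (median 0.47), with Tkt, transketolase (0.81), and Idh2, the mitochondrial NADP isocitrate dehydrogenase (0.77), in all 7 fits, and 3 called without chow replicate 1, chow replicate 2, vehicle replicate 2 or vehicle replicate 3. Pgd (1.03) and G6pdx (0.95), the dehydrogenases of that pathway, were called higher. In the tricarboxylic acid cycle list 9 of 29 were called lower and 2 higher, but Fh1, fumarase (-0.80, from 268.3, 258.1 and 292.9 CPM to 176.4, 151.0 and 144.3 CPM), was the only one in all 7 fits. With library size alone that list had 0 called lower and 12 higher, and its median went from -0.28 to 0.25. Oxct1, the ketone-using transferase that hepatocytes normally keep low, rose from 4.99, 5.23 and 4.87 CPM to 8.01, 18.1 and 13.7 CPM (1.40, adjusted p = 0.00872). Ucp2, a mitochondrial carrier, rose from 20.9, 21.8 and 23.1 CPM to 66.1, 56.3 and 68.8 CPM (1.54), and Slc25a13, the aspartate-glutamate carrier of hepatocytes, fell by 1.28. Slc37a4, the glucose-6-phosphate carrier of the endoplasmic reticulum, fell by 1.17, and Slc2a5, a fructose carrier, by 1.39.

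In lipid handling, 10 of 24 acyl-CoA thioesterases and carboxylesterases were called lower and 2 higher, 2 and 1 of them in all 7 fits (median -0.71). The count of lower calls was 2 without chow replicate 2 and 1 with library size alone, where 5 were called higher. Ces3b went from 509.5, 384.2 and 459.9 CPM to 98.8, 102.3 and 65 CPM (log2 fold change -2.35, adjusted p = 0.00252), and Acot12 fell by 0.85, a call absent with library size alone. The family's genes sit in clusters of near-identical copies. Of 39 phospholipid genes 11 were called higher and 3 lower, 3 and 1 in all 7 fits, and 3 were called higher without chow replicate 2. 21 were called higher and 0 lower with library size alone. Lpl, which frees fatty acids from circulating lipoproteins, rose from 17.3, 23.2 and 36.9 CPM to 129.6, 387.0 and 200.8 CPM (3.20), whereas Lipc, the hepatic lipase, went from 237.8, 249.6 and 208.7 CPM to 131.3, 133.2 and 105.7 CPM (-0.91; not called with library size alone). Pla2g7, the macrophage-derived phospholipase that circulates on lipoproteins, rose by 1.80 and Gpat3, an acyltransferase of glycerolipid synthesis, by 1.24. In the sphingolipid list Sptlc2, a subunit of the enzyme that starts synthesis, rose by 0.82 and Ormdl2, a regulator of that enzyme, went down by 0.79, the latter uncalled with library size alone and overlapping an expressed gene on the other strand.

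Nucleotide, zinc and copper genes each held a few calls. Of 36 purine and pyrimidine genes 5 were called higher and 9 lower, or 15 and 2 with library size alone. Without vehicle replicate 3 the lower count was 2. Of 21 metallothionein and zinc transport genes 3 were called higher and 2 lower, and of 17 copper genes 2 and 1. The zinc and copper shares were near those of all tested genes. With library size alone each of these 2 lists had 7 called higher and 0 lower. Dpyd, which starts pyrimidine degradation, fell from 938.3, 1023.1 and 771.9 CPM to 414.2, 368.8 and 294.6 CPM (log2 fold change -1.34, adjusted p = 0.00383). The purine synthesis enzyme Paics fell by 0.94 and the nucleoside kinase Dck rose by 0.80. Slc39a4 read 6.39, 6.54 and 7.36 CPM in chow and 29.7, 26.7 and 42.2 CPM on the NASH diet, while Slc39a14, another zinc importer, went down by 0.75 (not called with library size alone). The copper importer Slc31a1 went down by 0.75, likewise not called with library size alone, and Sod3, the extracellular superoxide dismutase, rose by 1.2. Aldh18a1, which makes proline's precursor, rose from 0.156, 0.688 and 0.768 CPM to 2.38, 3.36 and 4.10 CPM (2.43), and Adh4 went down by 0.85 with no call under library size alone. Paics overlaps exon sequence of an expressed gene on the opposite strand.

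Many genes of the cytoskeleton were called higher. Of 57 genes of the actin cytoskeleton 31 were called higher and 1 lower (median 0.72), with 18 higher in all 7 fits. Without chow replicate 2 or vehicle replicate 3 the higher count was 19. Capg, a filament-capping protein of macrophages, read 1.87, 2.27 and 2.88 CPM in chow and 13.4, 15.9 and 15.3 CPM on the NASH diet (log2 fold change 2.62, SE 0.33, adjusted p = 0.00143). Tmsb10 (2.36) and Tpm1 (1.38), a thymosin and a tropomyosin, rose beside Actb. Of 15 tubulin genes 12 were called higher (median 1.09), 7 in all 7 fits, which was also the count without vehicle replicate 3. Tubb6 was at 4.37, 4.13 and 3.97 CPM in chow and 16.6, 14.5 and 19.7 CPM on the NASH diet, Tuba8 rose by 2.41, Stmn1, which frees tubulin from microtubules, by 1.29, and Tuba1c, which has near-identical copies, by 1.02. Of 18 intermediate filament genes 6 were called higher, and 3 without chow replicate 1, chow replicate 2 or vehicle replicate 3. Krt8 and the nuclear lamin Lmna (1.07) rose in all 7 fits, and the duct keratins Krt19 (2.33) and Krt7 (2.12) were called higher, not in all 7.

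Annexins bind membranes and galectins bind sugars on them. Of 18 annexins and galectins 8 were called higher, 6 in all 7 fits. Anxa2 rose from 11.9, 16.5 and 15 CPM to 87.7, 152.0 and 196.1 CPM (log2 fold change 3.32), and Lgals3 from 4.21, 6.61 and 7.81 CPM to 38.7, 88.6 and 74.1 CPM (3.39). Lgals1 rose by 2.12. Among tetraspanins, Cd63 and the leukocyte genes Cd53 (1.59) and Tspan32 (2.66) rose, though the 3 chow libraries together held 9 reads of Tspan32. Tspan31 fell by 0.98, with an expressed neighbour on the opposite strand over its exons.

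Many genes of myeloid signalling and many myeloid receptors were called higher. Of 50 genes of phagocyte signalling 36 were called higher (median 1.18), 19 in all 7 fits, and 21 without chow replicate 2. Cyba read 4.99, 5.78 and 6.34 CPM in chow and 21.2, 29.3 and 26.5 CPM on the NASH diet. The myeloid transcription factor Spi1 rose by 1.67, from 2.34, 4.20 and 6.66 CPM to 15.1, 14.3 and 14.7 CPM, and the adaptor Dok1 by 2.23. Of 36 paired and Siglec receptors 21 were called higher (median 1.34), 16 in all 7 fits. In neither list was a gene called lower by edgeR or DESeq2, or lower at an unadjusted p under 0.05. Sirpa, the receptor for the don't-eat-me ligand CD47, rose from 13.1, 14.2 and 17.9 CPM to 53.3, 75.2 and 65.1 CPM (2.09, adjusted p = 0.00247), and Slamf9 (2.36), Slamf8 (3.27) and Cd300lb (2.71) rose from at most 1.24 CPM in any chow library.

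Of 28 Fc receptors and C-type lectins 15 were called higher and 2 lower, 10 and 0 in all 7 fits, and 19 and 0 with library size alone. The high-affinity IgG receptor Fcgr1 rose from 1.87, 3.51 and 4.16 CPM to 10.7, 15.3 and 12.3 CPM (log2 fold change 1.94), Fcgr3 by 1.38, Clec4a2 by 2.32 and Clec12a by 1.93. In the list of receptors for nucleotides, lipid mediators and formyl peptides, 12 of 33 were called higher and 2 lower, 4 and 1 in all 7 fits, and 4 higher without vehicle replicate 3. Under library size alone, 22 were called higher and 0 lower. P2ry6, a receptor for UDP, rose from 1.25, 1.38 and 1.60 CPM to 5.36, 5.97 and 4.94 CPM (1.92), and the anaphylatoxin receptor C3ar1 by 2.00. Adora1 (1.07) and P2ry14 (1.57), receptors for adenosine and UDP-sugars, rose too.

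Markers of recruited macrophages moved with these genes. All 5 of the markers were called higher, and their summed level was 3.59 to 5.12 CPM in chow and 73.4 to 143.7 CPM on the NASH diet. Gpnmb reached 32.5, 69.5 and 45.6 CPM from 0.780, 0.206 and 0.0640 CPM. Markers of resident Kupffer cells went both ways: Timd4 fell from 5.30, 7.91 and 12.0 CPM to 0.885, 0.853 and 0.845 CPM, Marco by 3.95 on the log2 scale, Cd5l rose by 1.13, and Clec4f changed by -0.02 (adjusted p = 0.967). Of the neutrophil markers 3 could be tested and 0 were called by edgeR or DESeq2 (1 at an unadjusted p under 0.05). These were S100a8 (1.10), Csf3r (0.93) and S100a9 (0.36), all above 0. Ly6g was too low to test in either group, at 0, 0 and 0.0640 CPM in chow and 0 in every vehicle library. The part that cell numbers have in the myeloid changes was not tested.

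Cytokine receptors and ligands moved in both directions. In the TNF superfamily 12 of 23 genes were called higher and 1 lower (median 1.38), 4 in all 7 fits and 4 without chow replicate 1. Tnfrsf12a, the receptor for the ligand TWEAK, rose from 3.59, 3.10 and 2.75 CPM to 10.3, 20.4 and 15.3 CPM (log2 fold change 2.31, adjusted p = 0.00406), and Tnfsf12, which encodes TWEAK, rose by 1.63, so ligand and receptor rose together. Ltbr (0.70) and Tnfrsf19 (1.47) rose as well. Of 35 interleukin receptor genes 8 were called higher and 5 lower, 4 and 2 in all 7 fits, with 4 higher without chow replicate 2 and 2 lower without vehicle replicate 3. 20 were called higher and 2 lower with library size alone. Il10ra (1.35) and Il18bp (0.92), which holds interleukin 18 inactive, rose, while Il1rap, the shared interleukin 1 co-receptor, fell from 246.6, 294.6 and 215.1 CPM to 110.7, 109.4 and 88.0 CPM (-1.30) and Lifr, the receptor for leukaemia inhibitory factor, fell by 1.10. Il18bp and Il1rap share exon sequence with opposite-strand genes.

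Growth factor genes also moved both ways. Of 46 genes 10 were called higher and 6 lower, 3 in each direction in all 7 fits, with 3 higher without chow replicate 2 and 3 lower without vehicle replicate 3. Under library size alone, 19 were called higher and 2 lower. Beside Egfr, Fgf1 fell by 1.33, from 210.4, 197.6 and 125.8 CPM to 94.4, 72.3 and 45.2 CPM, and Klb, the co-receptor that hepatic FGF receptors need to bind FGF21, by 1.01 (27.8, 33.6 and 42.3 CPM against 17.3, 15.5 and 18.9 CPM). The hormone gene Fgf21 was at 6.24, 3.10 and 4.74 CPM in chow and 10.3, 19.2 and 18.5 CPM on the NASH diet, so the hormone and its co-receptor moved in opposite directions. Axl, a receptor tyrosine kinase of phagocytes and stellate cells, rose from 18.2, 23.2 and 26.2 CPM to 53.7, 54.0 and 61.4 CPM (1.31), its ligand Gas6 by 1.49 and Vegfb by 1.31. Insr, the insulin receptor, went from 178.3, 198.0 and 173.8 CPM to 122.5, 120.0 and 102.1 CPM (-0.68, adjusted p = 0.00936), a change of -0.16 with no call under library size alone. Igfbp7 rose by 1.19 and overlaps an opposite-strand gene.

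Pathways of tissue patterning held a few strong members. In the Hippo list 7 of 33 were called higher, and 4 without vehicle replicate 2 or vehicle replicate 3. In all 7 fits 4 were called: Tgfb2, Fstl1 (2.23), Axl and the co-activator Wwtr1 (0.79). Tgfb2 went from 0.156, 0.344 and 0.256 CPM to 1.82, 3.94 and 2.41 CPM (log2 fold change 3.30). The 3 chow libraries together held 10 reads of Tgfb2, so the size of its fold is uncertain. In the Notch list 5 of 28 were called higher, and Hey1, a target gene, rose from 0.312, 0.482 and 0.320 CPM to 1.54, 2.29 and 2.03 CPM (2.34); the ligand Jag1 (1.06) and the target Hes1 (0.93) were called higher, not in all 7 fits. Without chow replicate 1, vehicle replicate 2 or vehicle replicate 3, 1 Notch gene was called. Of the Wnt genes 7 of 36 were called higher and 1 lower, 2 higher without chow replicate 1 or vehicle replicate 3, and 15 higher and 0 lower with library size alone; the secreted antagonist Frzb rose by 2.67, and Lgr4, a receptor that strengthens Wnt signals in hepatocytes, went down by 0.80 and was not called with library size alone. Of 12 Hedgehog genes edgeR called 1, and with library size alone 5 higher and 1 lower: Hhip, the decoy receptor that binds Hedgehog ligands, fell from 7.49, 7.78 and 5.44 CPM to 1.44, 1.12 and 0.634 CPM (-2.69, adjusted p = 0.00365). Ihh, a ligand, changed by 1.68 and did not pass (adjusted p = 0.0550), although it passed in DESeq2, with library size alone, with no filter, with the 6 libraries only and without vehicle replicate 1.

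Guidance genes included the largest log2 fold change of a called list member. Ephb2, an ephrin receptor, was steady in chow at 0.312, 0.344 and 0.320 CPM and reached 10.2, 9.65 and 21.1 CPM on the NASH diet (log2 fold change 5.35, SE 0.92, adjusted p = 0.00362). Robo2 (2.08), Unc5b (1.60) and Sema4d (2.79) rose in all 7 fits, among 9 of 42 members called higher and 1 lower, and 5 were called higher without chow replicate 1, chow replicate 2, vehicle replicate 2 or vehicle replicate 3. Plat, tissue plasminogen activator, rose from 0.156, 0.0688 and 0.128 CPM to 2.19, 5.54 and 6.04 CPM (5.30, SE 0.91, adjusted p = 0.00362), and Plau, urokinase, by 1.96. The 3 chow libraries together held 12 reads of Ephb2 and 4 of Plat, so the sizes of these folds are less certain than their direction. In the neuronal and synaptic list 7 of 25 genes were called higher and 3 lower (median 0.80), 1 and 2 in all 7 fits. Without chow replicate 2 the higher count was 2, and library size alone gave 19 higher and 2 lower. The adhesion molecules Cadm4 (-2.44) and Ncam2 (-1.83) fell, Cadm4 from 7.8, 5.44 and 9.99 CPM to 0.978, 1.33 and 1.94 CPM. Of the nerve markers, Sox10 was at 0 in all 6 libraries and Ncam1 was called higher (3.12), not in all 7 fits. The part of nerve in these values was not tested.

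In a list of phosphatases and other genes of kinase and G-protein signalling, 12 of 40 were called higher and 1 lower. In all 7 fits these were 7 and 1, and 7 were higher without chow replicate 1 or vehicle replicate 3. Rgs2, a brake on G-protein signals, rose from 2.34, 5.02 and 6.40 CPM to 14, 23.3 and 21.5 CPM (log2 fold change 2.03), Dusp8 by 3.30, Rgs19 by 1.81 and the kinase Map4k4 by 1.55. Of the cell death genes 11 of 40 were called higher and 1 lower, 3 in all 7 fits, and 4 higher without chow replicate 1 or vehicle replicate 2. The myeloid survival genes Bcl2a1d (3.50) and Bcl2a1a (3.26), near-identical copies, and Casp1 (1.07), the inflammasome protease, rose. The 3 chow libraries together held 8 reads of Bcl2a1d and 5 of Bcl2a1a, so the sizes of these 2 folds are uncertain. Of 35 p53 targets 5 were called higher and 1 lower (2 higher without chow replicate 2 or vehicle replicate 3, and 16 higher and 0 lower with library size alone), with Aen (0.81) and the death effector Bax (1.06, from 4.68, 5.50 and 8.0 CPM to 12.0, 14.1 and 12.5 CPM) in all 7 fits.

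Transcription factors were called in both directions. Of 44 nuclear receptors and coregulators 2 were called higher (4.55%) and 5 lower (11.4%), against 11.1% and 8.16% of all tested genes. Pparg, the lipid-storing receptor, rose from 15.4, 15.8 and 13.3 CPM to 25.7, 28.4 and 41.3 CPM (log2 fold change 1.10, adjusted p = 0.00925), and Nr4a3, an immediate early receptor, from at most 0.0688 CPM to 0.606, 0.799 and 0.888 CPM. Hnf4a (-0.62), the hepatocyte master regulator, the bile acid receptor Nr1h4 (-0.60) and Esr1 (-1.11) were called lower with all libraries. Without vehicle replicate 3, or with library size alone, 0 of the 44 were called lower, and in the latter 12 were called higher. Of 65 developmental factors 13 were called higher and 3 lower, 3 and 0 in all 7 fits, and 4 higher without chow replicate 1, chow replicate 2 or vehicle replicate 3. 33 were called higher and 0 lower with library size alone. Klf6 rose from 9.20, 10.9 and 15.4 CPM to 35.6, 52.2 and 42.9 CPM (1.86), Zeb2 by 1.01 and Etv5 by 1.07. Uhrf1, the maintenance methylation factor of dividing cells, rose from 0.156, 0.275 and 0 CPM to 2.24, 1.76 and 1.56 CPM (3.68). With chow values this near 0, the size of its fold is uncertain. With Kmt5a (1.02), Uhrf1 made 2 of 52 chromatin enzymes called higher (3.85%), beside 3 called lower (5.77%), both below the shares of all tested genes. With library size alone 19 were called higher and 0 lower.

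How many lysosomal genes were called depended on the scaling. Of 58 lysosomal hydrolase and membrane genes 15 were called higher and 2 lower (median 0.26), 6 and 0 in all 7 fits, and 7 higher without chow replicate 2 or vehicle replicate 3. Under library size alone, 45 were called higher and 0 lower. Hexa, a subunit of the ganglioside-cleaving hexosaminidase, rose from 48.2, 41.4 and 44.1 CPM to 84.2, 77.8 and 88.0 CPM (log2 fold change 0.91, adjusted p = 0.00253), the protease Lgmn by 1.19 and the macrophage protein Cd68 by 1.60. The widely expressed Lamp1 changed by 0.26 (adjusted p = 0.289) and Ctsb by 0.25 (adjusted p = 0.241). Of 20 subunits of the proton pump V-ATPase edgeR called 1, Atp6v0b (0.63), and 13 were called higher with library size alone. TCACGTGA, the core of the lysosomal CLEAR element, was in 1.12% of all promoters, 3 of 14 V-ATPase and 3 of 47 lysosomal promoters. None of those 6 genes was called higher. The shorter CACGTG was in 8.09% of all promoters, 4 of 14 V-ATPase and 12 of 47 lysosomal promoters. It was held by the 1 V-ATPase gene called higher and by 3 of the 13 others. Among lysosomal genes, 3 of 13 called higher and 9 of 34 not called higher held it. Of 46 autophagy genes 7 were called lower and 1 higher, 1 and 0 in all 7 fits, which was Nbr1 (-0.76). Without vehicle replicate 3 the lower count was 1, and with library size alone it was 0, with 13 called higher.

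Core machinery had few calls under TMM and many higher calls with library size alone. Of 81 cytosolic ribosomal protein genes edgeR called 1, Rplp2 (0.70, adjusted p = 0.0241, not called in 4 of the fits that left out a library), and their median log2 fold change was 0.01, near that of all genes under both scalings (0.54 against 0.51 with library size alone, where 43 were called higher). Of 73 mitochondrial ribosomal genes 2 were called higher and 3 lower (32 and 0 with library size alone), among them Mrps31 (-0.60; -0.08 and no call with library size alone). Of 32 mitochondrial import genes edgeR called 1, Timm23 (-0.56), not called with library size alone, where 11 others were called higher, or in 4 of the fits that left out a library. Of 48 splicing factors 7 were called lower and 1 higher, and of 48 ubiquitin ligases and deubiquitinases 6 lower and 1 higher, the latter being Tnfaip3 (1.42), a brake on NF-kB signalling. Without vehicle replicate 3 the splicing count was 1, without chow replicate 1 the ubiquitin count was 2, and with library size alone both were 0, Itch (-0.27) and Smurf2 (-0.12) included, with 15 splicing and 16 ubiquitin genes called higher.

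Markers of the other cell types a liver sample can hold gave the following sums. Bile duct markers summed to 26.6 to 43.4 CPM in chow and 72.1 to 488.3 CPM on the NASH diet, most of it from Spp1. Of these markers 4 of 5 were called higher, but only Spp1 in all 7 fits. Vehicle replicate 1 was lowest of its group, as for Epcam (1.44 CPM against 9.59 and 5.49 CPM, and 0.320 to 1.09 CPM in chow). Markers of sinusoidal endothelium summed to 97.3 to 134.3 CPM against 99.5 to 110.1 CPM, with 0 of 4 called by edgeR (2 at an unadjusted p under 0.05, 1 in DESeq2). Stellate cell markers summed to 116.3 to 170.0 CPM against 145.1 to 201.5 CPM, with Des (1.5) called higher. T cell markers stayed at or below 5.13 CPM in sum, with 2 of 5 called higher but not in all 7 fits. Pancreatic acinar markers stayed at or below 0.280 CPM. Mesothelial markers summed to 2.34 to 5.51 CPM in chow and 5.70 to 31.5 CPM on the NASH diet, the highest in vehicle replicate 3, and red cell markers ran from 285.7 to 548.8 CPM against 108.9 to 360.2 CPM. The 5 hepatocyte markers in the table summed to 126405.4 to 154049.7 CPM in chow and 51620.7 to 63449.5 CPM on the NASH diet, most of it from Alb. Alb was called lower in all 7 fits, and Serpina1c was called lower but not in all 7. Apoa1, Ttr and Apob did not pass (adjusted p = 0.0647, 0.0768 and 0.0578). The part these shifts have in the hepatocyte gene falls was not tested.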

How the data were processed

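The authors deposited whole-number read counts per gene, not normalised, for 12 liver libraries. Per the labels' protocols, libraries were made with a KAPA mRNA HyperPrep kit and read in pairs of 76 bases, and reads were trimmed with Trimmomatic 0.35. The submitters' processing notes name HISAT2 2.1.0, SAMtools 1.2 and HTSeq with build GRCm38. Whether strand was used, how multiply mapped reads were counted and which annotation release served: not given in the sources used here. Symbols came from GENCODE M21. The 47 entries without a symbol held 0.0022% of counts.

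Genes passing edgeR's default filter (minimum count 10, minimum total 15) were fitted for all 12 libraries in 1 quasi-likelihood model with TMM scaling (edgeR 4.0.16, R 4.3.3), and p was adjusted by Benjamini-Hochberg over 14469 genes. CPM used TMM-scaled totals. The SE is approximate: the size of the log2 fold change over the root of its F statistic. Alternatives were library size alone, the size factors of DESeq2 in edgeR, DESeq2 1.42.0, other filters, a fit of the 6 libraries, and leaving out each library. The test was tried on simulated counts.

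Named genes were called in the same direction in all 7 fits, did not overlap between groups, and were not predicted, pseudogene, antigen-receptor, histone or Mup genes. Of these the text takes the 12 largest changes in CPM each way, the 12 largest fold changes at 10 CPM or more, the 10 lowest p, and up to 4 per list with at least 3 called members; the fold and p rankings pass over genes described in an earlier reading of these data. In lists with fewer called members, 2 are given as values. A few genes that were tested are not reported here. Other list members given were chosen after their values were seen. Lists and rules were written with earlier results of these data known.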

Additional observations from a re-analysis of the deposited data

How the results depend on the processing

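With library size alone, edgeR called 5758 genes in place of 2786, 5510 higher and 248 lower, with 2870 beyond a log2 change of 1, and shared 1854 calls with TMM. Leaving out 1 library gave between 1200 and 2276 calls, 775 to 1400 higher, 425 to 980 lower and 877 to 1603 beyond 1. The counts under the size factors of DESeq2 in edgeR (2778), DESeq2 (3237), no filter (2544), a mean of at least 1 CPM (2547) and the 6 libraries only (2764) were within 1.5 times. Among the genes named in the text and called, Eprs turned from -0.50 to 0.03 with library size alone and the others kept their direction under every setting run. Of 201 named genes, 19 lost and 3 gained a call with library size alone. Counts of higher calls grew and counts of lower calls shrank with library size alone in most lists, and of 132 list counts 79, 80 and 33 moved by over 1.5 times without chow replicates 1, 2 and 3, and 22, 69 and 88 without vehicle replicates 1, 2 and 3. No paired analysis was possible because the labels pair no animals across groups. Replicates are separate mice, 3 per group, and an exact permutation of 3 against 3 cannot go below 0.1, so single values were not tested that way. Depth limits genes near 1 CPM most, and chow replicate 1 is the shallowest library.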
